A study of Mus musculus with 19 samples.

Results

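NRF2 pathway genes were followed across liver tumours of the BM mouse model, in which β-catenin and MYC are activated in hepatocytes. A set of 10 genes was chosen by symbol and matched to stable identifiers: Nfe2l2, Keap1, Gclc, Gclm, Slc7a11, Nqo1, Txnrd1, Srxn1, Hmox1 and Ugdh. They make up 10 of the 39179 identifiers in the count table. All mice were male, carried Ctnnb1tm1Mmt (HET) and Gt(ROSA)26Sortm1(MYC)Djmy (HOM), and received the vector AAV8.TBG.PI.Cre.rBG at 640000000 genome copies (GC) per mouse. The TBG promoter of the vector directs Cre mainly to hepatocytes. Recombination in other liver cells was not tested here. The labels give no age. Of 19 samples, 10 of the 13 tumours (numbered 04 to 13) were analysed. The 3 control livers and the 3 high AAV control livers (200000000000 GC per mouse) were not analysed here, so every comparison is between tumours and none is with non-tumour liver.

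NRF2, encoded by Nfe2l2, is a transcription factor that binds antioxidant response elements as a partner of small MAF proteins. KEAP1 holds NRF2 in the cytoplasm and directs its ubiquitination through CUL3, and oxidants or electrophiles that modify KEAP1 release NRF2. Its target genes make glutathione, recycle thioredoxin, reduce quinones and degrade heme. The pathway is active in liver detoxification and its genes are mutated in a part of hepatocellular carcinomas. Because NRF2 is controlled mainly as a protein, the RNA of Nfe2l2 need not follow NRF2 activity, and target genes are the usual readout.

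Libraries held 11687034 to 36964427 gene counts. Levels are given as CPM, the count of a gene relative to the library total, scaled with TMM factors that correct for composition, and the 10 genes are ranked only per kilobase of annotated exon. Of each list of further genes, the 2 with the highest CPM are named. CPM grows with exon length, so these values do not rank the listed genes by transcript level. The column names carry a tag that takes 5 values over the 10 tumours. Tag 1 is tumour 04, tag 2 tumours 05 and 06, tag 3 tumours 07 and 08, tag 4 tumours 09 and 10, and tag 5 tumours 11, 12 and 13. What such a tag marks is not given in the labels. If it marks a mouse, tumours of the same tag are not independent, and p-values over tumours are too small. Tumours 05, 06 and 07 stood apart in the summed level of Rpph1 and Rmrp, RNAs without a poly(A) tail, at 47.1 to 83.5 CPM against 1.54 to 6.46 CPM in the other 7. The tissue label was met by hepatocyte markers, whose summed level over 6 genes was 21846 CPM or more in every tumour. In whole tumour RNA, fewer cells of a type and less RNA per cell cannot be told apart.

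Per kilobase, Hmox1 had the highest mean level, at 100.5 CPM per kb, and Slc7a11 the lowest, at 1.10. Between them stood Ugdh (58.3), Gclc (36.9), Gclm (34.7), Txnrd1 (32.9), Nfe2l2 (23.8), Srxn1 (19.2), Keap1 (17.4) and Nqo1 (7.88 CPM per kb). Keap1 exceeded Nqo1, and Nqo1 exceeded Slc7a11, in all 10 tumours. The mean of Hmox1 exceeded that of Ugdh through a few tumours, since Hmox1 was the higher of the pair in 4 of 10. Gclc and Gclm were not separated (5 of 10 tumours in each order, difference 2.13 ± 11.4 CPM per kb, SD, n = 10). Gclm and Txnrd1 (7 of 10), Nfe2l2 and Srxn1 (8 of 10, difference 4.59 ± 7.75 CPM per kb) and Srxn1 and Keap1 (3 of 10 in the order of the means) were likewise within their spread. The exon lengths join all annotated isoforms, which lowers the values of genes with long rare isoforms.

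**Figure D1:**
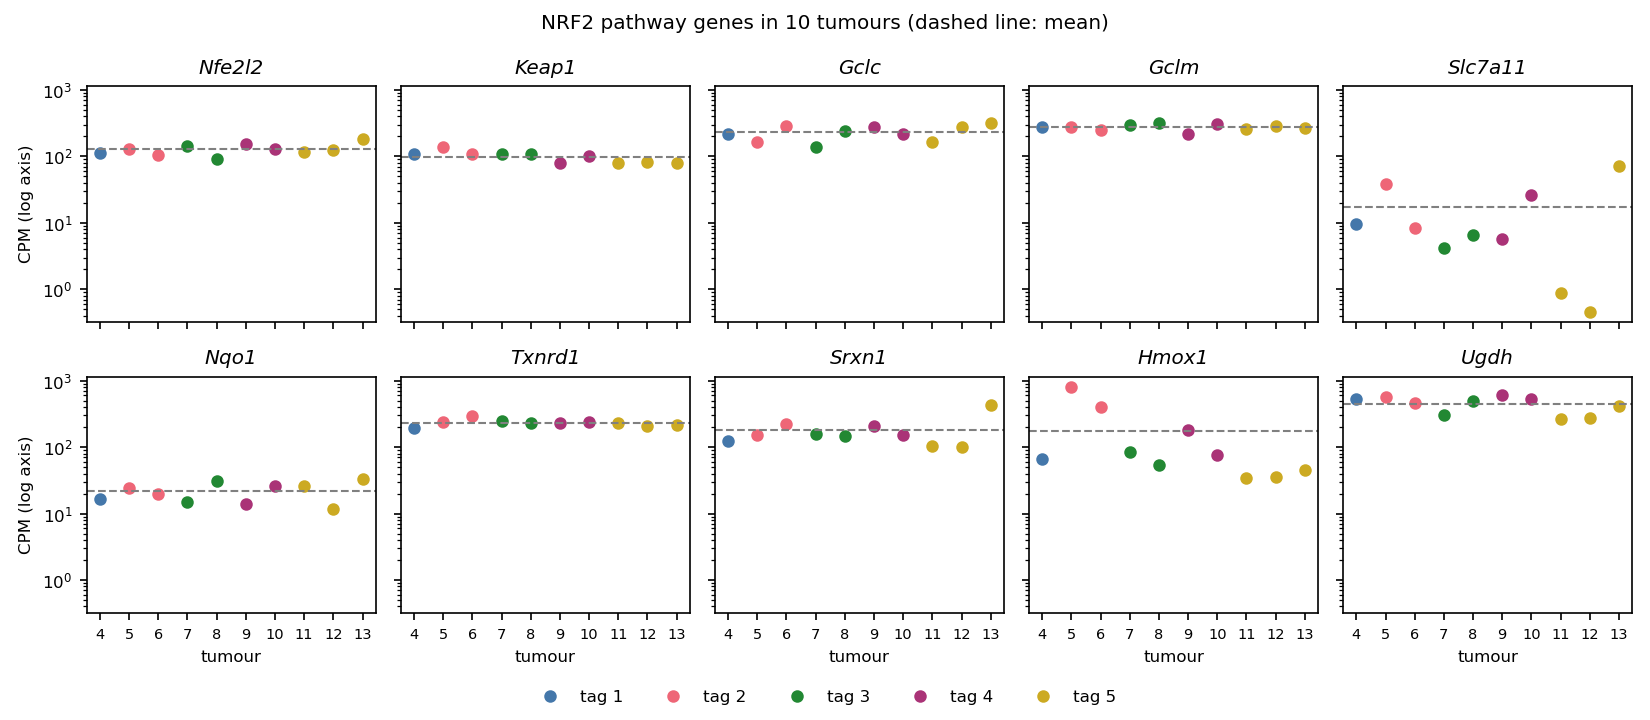
CPM of each gene (log axis) in each of 10 tumours (x axis), coloured by column tag, with the mean as a dashed line. Gclm and Txnrd1 stay close to their mean, whereas Slc7a11 runs from 0.46 to 71.1 CPM and Hmox1 from 34.3 to 792 CPM.

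The genes differed widely in how much they varied between tumours. The standard deviation (SD) of log2 CPM over the 10 tumours was 0.16 for Gclm and for Txnrd1, and 2.18 for Slc7a11. Slc7a11, Hmox1 and Srxn1 had a highest tumour at least 4-fold over the lowest, which is 3 of 10 genes. Slc7a11 did not pass the filter on low counts, so that 2 of 9 pathway genes tested stand against 1977 of 12462 genes tested (15.9%), and 3 of 10 against 6253 of 24682 genes (25.3%) without the filter. The median SD was 0.40 for the 9 pathway genes tested and 0.33 for all genes tested, and without the filter it was 0.43 for the 10 pathway genes and 0.41 for all genes. Of the 10 genes, 9 passed the filter on low counts, and Slc7a11 did not, since every tumour has to pass the minimum and its level in tumour 12 was below it. Its values were taken from the unfiltered table with the same scaling. In CPM, the highest tumour stood clear of the other 9 by more than Dixon's critical gap for Srxn1, Hmox1, Txnrd1 and Keap1, as for 11.4% of the genes tested, and on the log2 scale for 0 of 10 genes (3.02% of the genes tested).

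**Figure D2:**
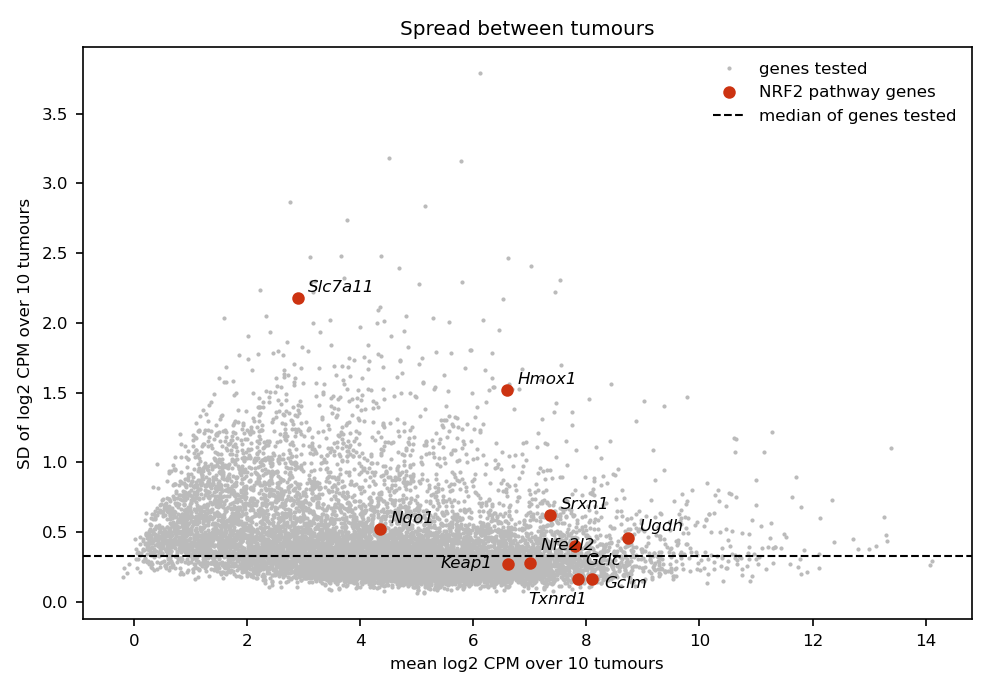
SD of log2 CPM (y axis) against mean log2 CPM (x axis) over 10 tumours for 12462 genes tested (grey) and the 10 NRF2 pathway genes (red), with the median SD of the genes tested, 0.33, as a dashed line. Slc7a11 (SD 2.18) and Hmox1 (1.52) lie far above that line, and Gclm and Txnrd1 (0.16 each) lie below it.

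The regulators, Nfe2l2 and Keap1, ranged less than 2-fold between tumours. Nfe2l2 (chromosome 2, 75675513 to 75704663, GRCm38.p6) had 130 ± 25.9 CPM (SD, n = 10). From tumour 04 to tumour 13 its levels were 115, 130, 106, 142, 93.1, 156, 130, 118, 127 and 184 CPM. Tumour 13 was the highest and tumour 08 the lowest, 1.97-fold apart. Keap1 (chromosome 9, 21229730 to 21239332) had 99.0 ± 18.9 CPM. Tumour 05 was the highest at 137 CPM, tumours 04, 06, 07, 08 and 10 lay between 102 and 108, and tumours 09, 11, 12 and 13 lay between 78.4 and 82.2. Levels of Keap1 thus fell into an upper and a lower range, with tag 4 the only tag of more than 1 tumour that had members in both. The correlation of Nfe2l2 with Keap1 was negative (Pearson r = -0.42, p = 0.23, permutation test, n = 10; Spearman rho = -0.30, p = 0.41), and r turned to 0.03 once the mean of each tag was subtracted.

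Around these regulators, a list of 10 genes of the NRF2 complex and its control was also measured, all of which passed the filter. Of these, 0 of 10 differed between tags and 0 of 10 were correlated with Nfe2l2 at an adjusted p under 0.05 (0.425% and 0.0% of all genes tested). Sqstm1, which encodes p62, the autophagy receptor that sequesters KEAP1, had 1126 CPM (mean), with 1830.5 CPM in tumour 05 and 760 in tumour 12. Nfe2l1, a related transcription factor, had 230 CPM and a 1.77-fold range. The small MAF gene Maff had a 16.4-fold range, from 13.3 CPM in tumour 12 to 217 in tumour 05, and Mafk a 3.90-fold range with the same tumours at its ends. Cul3, which encodes the scaffold of the KEAP1 ubiquitin ligase, ranged only from 44.6 to 61.5 CPM.

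The glutathione synthesis enzymes ranged 2.30-fold (Gclc) and 1.48-fold (Gclm). Gclc (chromosome 9, 77754535 to 77794489) encodes the catalytic subunit of glutamate-cysteine ligase, and had 231 ± 60.6 CPM, from 138 in tumour 07 to 317 in tumour 13. Its modifier subunit Gclm (chromosome 3, 122245487 to 122267215) had 276 ± 30.5 CPM, from 218 in tumour 09 to 324 in tumour 08. Across the genes tested, 95.7% had a larger SD than Gclm and 36.7% a larger SD than Gclc. Tumour 07 was the lowest for Gclc and the third highest for Gclm. In a list of 8 further glutathione genes, 7 passed the filter, 0 of 7 differed between tags, and 2 of 7 (Gpx2 and Slc3a2) had a range of at least 4-fold, beside 0.425% and 15.9% of the genes tested. The highest CPM were those of Gpx1, a glutathione peroxidase (1568.5 CPM), and Gss, glutathione synthetase (199 CPM, 1.43-fold range).

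Slc7a11 encodes the cystine transporter subunit that supplies cysteine for glutathione, and it varied most. It lies on chromosome 3, 50364936 to 50499087. In tumours 04 to 13 it had 9.5, 38.5, 8.4, 4.2, 6.5, 5.6, 25.8, 0.88, 0.46 and 71.1 CPM. Tumours 13, 05 and 10 were high, tumours 11 and 12 were close to silent, and the other 5 lay between 4.2 and 9.5 CPM. The smallest count behind these values was 14, in tumours 11 and 12. The highest tumour was 154-fold over the lowest, and 0.381% of the 24682 genes without the filter had a larger SD (0.169% of the genes tested). Tumours 11, 12 and 13 carry the same tag, so the extremes of the gene were found under 1 tag.

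The promoter of Slc7a11 is shown because the gene belongs to the response to amino acid shortage driven by ATF4 as well as to the NRF2 pathway, and both kinds of motif can be looked for in it. Promoters of 8 of the 10 genes were found in RefSeq (GRCm38.p6); those of Hmox1 and Gclc were not matched. Windows from 250 bases before to 50 bases after the start site were searched on both strands for the NRF2 core, TGACNNNGC or TGAGNNNGC, and for the composite element of ATF4 and C/EBP, TGATGNAA. The 200 bases before the start site of Slc7a11 (chr3:50443614-50443813, minus strand) and of Srxn1 (chr2:152105324-152105523, plus strand) are given 5′ to 3′ with all matches in capitals.
Slc7a11: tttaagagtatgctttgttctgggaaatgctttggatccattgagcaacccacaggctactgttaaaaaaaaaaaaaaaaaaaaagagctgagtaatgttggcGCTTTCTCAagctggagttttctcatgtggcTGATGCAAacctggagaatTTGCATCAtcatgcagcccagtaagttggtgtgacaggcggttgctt
Srxn1: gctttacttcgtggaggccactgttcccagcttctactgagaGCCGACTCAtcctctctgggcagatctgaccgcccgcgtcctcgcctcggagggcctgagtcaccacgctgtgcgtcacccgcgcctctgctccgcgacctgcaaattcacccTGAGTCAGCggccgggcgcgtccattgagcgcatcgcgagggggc

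In Slc7a11 the reverse match GCTTTCTCA is an NRF2 core, and TGATGCAA with the reverse match TTGCATCA are ATF4 and C/EBP elements. Of 32851 promoter windows in the table, 4.0% held the latter element and 23 (0.1%) held it more than 1 time. In Srxn1 the reverse match GCCGACTCA and the forward match TGAGTCAGC are NRF2 cores, and the forward match overlaps the AP-1 motif TGAGTCA. A further NRF2 core match of Srxn1 lies in the bases after the start site and is not printed. The NRF2 core was found in 27.8% of all windows, and more than 1 time in 4.7%. Single or paired matches were also found for Gclm, Nfe2l2, Txnrd1 and Ugdh, and none in the windows of Keap1 and Nqo1, which says only that these letters do not occur in those windows. A match is a description of letters and not evidence of binding.

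Srxn1 (chromosome 2, 152105524 to 152111376) encodes sulfiredoxin, which repairs overoxidised peroxiredoxins. Its levels in tumours 04 to 13 were 124, 151, 224, 156, 149, 207, 154, 103, 102 and 434 CPM. Tumour 13 was 1.94-fold over the next tumour, and tumours 11 and 12 of the same tag were the lowest. Over the genes tested on chromosome 2 the median of tumour 13 was shifted by 0.13 (log2) against the other tumours, and Srxn1 by 1.56. Among the chromosomes of the 10 genes this median was lowest for chromosome 10, at -0.37, where Txnrd1 was shifted by -0.12. For chromosome 8 it was -0.23, with Nqo1 shifted by 0.77 and Hmox1 by -1.22. The part of such shifts in the level of single genes was not tested. Txnrd1 (chromosome 10, 82833951 to 82897724), thioredoxin reductase 1, had 233 ± 27.1 CPM and ranged only 1.52-fold, from 196 in tumour 04 to 298 in tumour 06. Of a list of 5 other thioredoxin and peroxiredoxin genes, 0 of 5 reached a 4-fold range (15.9% of the genes tested), and the highest CPM were those of Prdx6 (938) and Prdx1 (351).

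Nqo1 (chromosome 8, 107388225 to 107403205), a quinone reductase commonly read as an NRF2 target, was per kilobase the lowest of the genes after Slc7a11, and had 21.7 ± 7.43 CPM. The values were 16.3, 24.1, 19.6, 15.0, 30.6, 14.1, 26.1, 26.4, 11.5 and 33.1 CPM in tumours 04 to 13. Tumour 13 was again the highest and tumour 12 the lowest, 2.87-fold apart, without a gap between high and low tumours. Ugdh (chromosome 5, 65413207 to 65435842) makes UDP-glucuronate for glucuronidation and had 445 ± 128 CPM. Tumours 11, 12 and 07 had 262 to 302 CPM, and the other 7 had 421 to 616 CPM, with tumour 09 the highest. Within tag 5, tumour 13 was therefore above tumours 11 and 12 for Nqo1, Slc7a11, Srxn1, Ugdh, Gclc, Nfe2l2 and Hmox1, but not for Gclm, Keap1 and Txnrd1.

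Hmox1 (chromosome 8, 75093618 to 75100593) encodes heme oxygenase 1, which degrades heme and is induced by NRF2 and by other stress signals. Its levels were 65.5, 792, 396, 85.3, 54.0, 183, 77.2, 34.3, 35.4 and 45.3 CPM in tumours 04 to 13. The 2 tumours of tag 2 were highest, tumour 09 was next, and the 3 tumours of tag 5 were lowest. The share of all genes with such an order of tags was not counted. Against the mean of the other tumours, Hmox1 was higher by 3.36 (log2) in tumour 05 and by 2.25 in tumour 06. The levels of marker lists in these tumours are given beside Hmox1. The summed level of 6 hepatocyte markers was lowest of all in tumour 05 (21846 CPM), and 0 of 6 had a positive r with Hmox1 (median -0.43), beside 50.6% of all genes (median 0.01). Of these 6, 1 (Hnf4a, a hepatocyte transcription factor) passed the adjusted test (r = -0.85, adjusted p = 0.0498, permutation test), as did 2.65% of the genes tested, and without tumours 05 and 06 the number of genes that passed was 0. All 5 endothelial markers had a positive r (median 0.49, with Cdh5 0.69, adjusted p = 0.162, and Pecam1 0.66, adjusted p = 0.196, permutation test). Their summed level was 167 CPM in tumour 05, 133 in tumour 06 and 34.3 to 317 in the others. A positive r was also found for 5 of 5 stellate and matrix (median 0.38), 3 of 4 blood (0.26), 1 of 2 cholangiocyte (0.03) and 1 of 4 macrophage markers tested (-0.20). That macrophage marker was Cd68 (r = 0.79, adjusted p = 0.0704, permutation test). Clec4f, a Kupffer cell marker, was lowest of all in tumour 05 (0.574 CPM) and highest in tumour 06 (59.4 CPM), whereas Cd68, a lysosomal macrophage gene, was highest in tumour 05 (68.3 CPM). The summed level of 8 macrophage markers was 89.0 CPM in tumour 05 and 272 in tumour 06, with 88.3 to 229 in the other tumours, and Marco had no count in tumour 05. Hemoglobin and Alas2 together had 219 and 278 CPM in tumours 05 and 06, against 101 to 6181 CPM elsewhere. The part of cell makeup, and of the raised RNA without a poly(A) tail in tumours 05 and 06, in the level of Hmox1 was not tested.

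**Figure D3:**
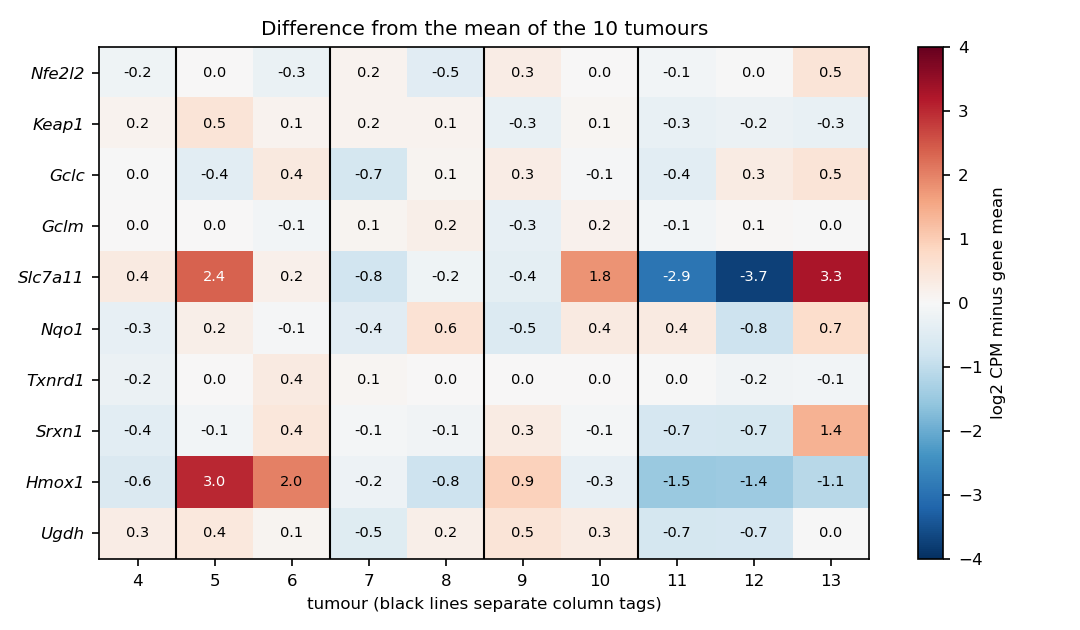
Difference of log2 CPM from the mean of the 10 tumours for each gene (rows) in each tumour (columns), with black lines between column tags. Slc7a11 is raised in tumours 05, 10 and 13 and reduced in 11 and 12, Hmox1 is raised in 05 and 06, and Srxn1 in 13.

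Of 8 glutathione S-transferases tested, 0 of 8 differed between tags and 0 of 8 reached a 4-fold range (0.425% and 15.9% of the genes tested), and the highest CPM were those of Gstm1 (1929) and Gsta3 (1917). Of 6 genes that supply NADPH, 0 of 6 reached that range, and Tkt (496 CPM) and Idh1, isocitrate dehydrogenase (274 CPM), had the highest CPM. The same held for 0 of 6 genes of heme and iron handling beside Hmox1, among which the ferritin genes Ftl1 (2332 CPM) and Fth1 (1905 CPM) ranged 1.60-fold and 1.41-fold. Among 11 genes of quinone and drug handling, 3 of 11 reached a 4-fold range, beside 15.9% of the genes tested: Cbr3 at 73.8-fold, Cyp2a5 at 4.75-fold and Osgin1 at 4.15-fold. Cyp2a5, a cytochrome P450 (1202 CPM), and Ephx1 (1097 CPM) had the highest CPM there. Among 4 efflux transporters, Abcc4 ranged 5.97-fold, with 521 CPM in tumour 13 and 235 in the next tumour, and Abcc3 ranged 4.57-fold, while Abcc2 had the highest CPM (488). In the last 4 lists, too, 0 genes differed between tags.

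Tumour 13 was the highest of the 10 tumours for 5 of the 10 genes (Nfe2l2, Nqo1, Gclc, Srxn1 and Slc7a11) and the lowest for none, beside 8.19% and 7.55% of the genes tested. Tumour 05 was the highest for Keap1 and Hmox1, and for 18.3% of the genes tested. Tumours 11 and 12 were each the lowest for 3 genes, beside 9.39% and 12.1% of the genes tested: tumour 11 for Keap1, Hmox1 and Ugdh, and tumour 12 for Nqo1, Srxn1 and Slc7a11. These counts describe 10 genes that are not independent of each other, and no test was made of them. No tumour was raised for all targets. Of the 8 target genes, tumour 06 was above the mean for 6, tumour 13 for 4 and tumour 11 for 1, beside 50.8%, 50.6% and 49.6% of the genes tested.

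Whether tumours of the same tag resembled each other was asked with edgeR's quasi-likelihood test over the 5 tags. Hmox1 was the only 1 of the 9 genes tested that differed (adjusted p = 0.0246, Benjamini-Hochberg over all genes), beside 53 of 12462 genes (0.425%). The call was lost without tumour 05, 11, 12 or 13 in turn (adjusted p = 0.067 to 0.138) and when only the first part of the tag was used (adjusted p = 0.233). Keap1 came next (unadjusted p = 0.0661, adjusted p = 0.372), followed by Ugdh (adjusted p = 0.425). For the other 6 genes the adjusted p lay between 0.687 and 0.961. Slc7a11, tested in the unfiltered table, had an adjusted p of 0.925. Tumour 04 is the only tumour of its tag and so adds nothing to the spread within tags.

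Whether the genes rise and fall together was asked with correlations over the 10 tumours on log2 CPM, with permutation p-values adjusted over all genes tested. With Nqo1 as reference, 0 of 12461 genes passed (0.0%), 388 had an unadjusted p under 0.05 (3.11%; 1.85% with a positive r), and by edgeR's quasi-likelihood slope 0 passed. Slc7a11 had the highest r among the pathway genes (r = 0.57, p = 0.0902, permutation test, n = 10; rho = 0.54, p = 0.115), then Srxn1 (r = 0.39, p = 0.274; rho = 0.20, p = 0.583). With tumours 09 and 12 left out, whose Nqo1 levels lay farthest from the median, r was 0.31 for Slc7a11 (exact permutation p = 0.455) and 0.36 for Srxn1 (exact permutation p = 0.398). With 1 tumour left out, r ranged from 0.35 (without tumour 12) to 0.80 (without tumour 11) for Slc7a11. For Srxn1 it ranged from 0.03 (without tumour 13) to 0.54 (without tumour 11). Nfe2l2 itself had r = -0.06 with Nqo1 (p = 0.873; rho = -0.09, p = 0.811), and the sign changed when 1 of tumours 07, 08 and 09 was left out.

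The protein-coding genes with the highest r to Nqo1 were Slc48a1, a heme transporter (r = 0.90), Cog1 (0.89), Ambra1 (0.89), Rai2 (0.88) and Tmem94 (0.87). Those with the lowest were Nkapd1 (-0.86), Serinc1, Psip1 and Kcnn1 (-0.84 each) and Eif2s2 (-0.83). All 10 had an adjusted p of 1.0 (n = 10, permutation test). Among listed pathway genes, Pir, a redox-sensitive iron protein (r = 0.81), Abcc4, an efflux transporter (0.74), Tkt, transketolase of the pentose phosphate pathway (0.67), and Ephx1, microsomal epoxide hydrolase (0.64), had an unadjusted p under 0.05. In the list of 11 genes for quinone and drug handling, 10 of 11 had a positive r with Nqo1 and the median r was 0.50, beside 0.03 over all genes. Efflux transporters (4 of 4 positive, median 0.34), NADPH supply (6 of 6, median 0.32) and glutathione S-transferases (8 of 8 tested, median 0.22) came next, and over all genes 53.5% had a positive r with Nqo1. Heme and iron genes (3 of 6 positive, median 0.03) and thioredoxin and peroxiredoxin genes (2 of 5, median -0.01) did not exceed the median over all genes. Among cell type markers tested, r with Nqo1 was positive for 0 of 5 endothelial (median -0.38) and 0 of 5 stellate and matrix markers (-0.38). It was also positive for 0 of 4 macrophage (-0.37) and 0 of 4 blood markers (-0.43). For cholangiocyte markers it was positive in 1 of 2 (median -0.01), and for hepatocyte markers in 2 of 6 (median -0.11). Of these, Alas2 of red blood cells (r = -0.65, p = 0.0316) and Lrat of stellate cells (r = -0.65, p = 0.0439) had an unadjusted p under 0.05 (adjusted p = 1.0 each, permutation test, n = 10). The part of these cell types in the values of the pathway lists was not tested. With Nfe2l2 the medians for quinone and drug handling, efflux, NADPH supply and glutathione S-transferases were 0.17, 0.19, 0.17 and 0.04.

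With Nfe2l2 as reference, 0 of 12461 genes passed (0.0%) by the permutation test and 0 by the edgeR slope, with 291 at an unadjusted p under 0.05 (2.34%; 0.931% with a positive r). Srxn1 was the highest target (r = 0.58, p = 0.0813, permutation test, n = 10; rho = 0.50, p = 0.145). This value rested on tumour 13, without which r was 0.12. Without tumours 08 and 13, the farthest from the median, r was 0.18 (exact permutation p = 0.664). The most alike genes over all were Mbnl2 (r = 0.92), Zfp566 (0.90), Med13 (0.87), Odr4 (0.85) and Zcwpw1 (0.84), none of which belongs to a listed pathway and all with an adjusted p of 1.0. Ugp2, which makes UDP-glucose (r = 0.65), had a positive r at an unadjusted p under 0.05 among the listed pathway genes, and Ces1g, a carboxylesterase (r = -0.78), and Txn1, thioredoxin (r = -0.64), a negative one. With Keap1 as reference 0 genes passed (0.0%), 17 passed by the edgeR slope, and 2146 had an unadjusted p under 0.05 (17.2%; 8.67% with a positive r). Among them was Hmox1 (r = 0.65, p = 0.0414, adjusted p = 0.274, permutation test; rho = 0.60, p = 0.0721). Without tumours 05 and 11 this r was 0.25 (exact permutation p = 0.578), and on deviations from the tag means it was -0.10.

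**Figure D4:**
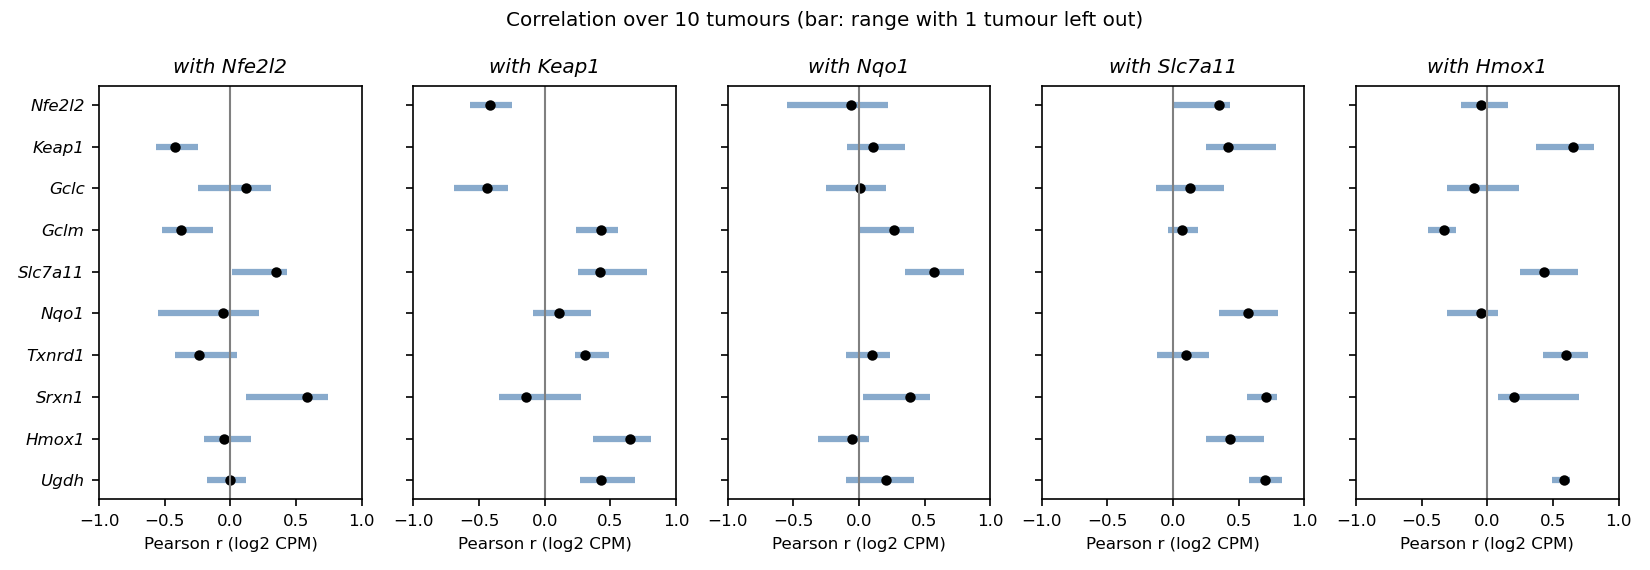
Pearson r over 10 tumours (x axis) of each gene (rows) with Nfe2l2, Keap1, Nqo1, Slc7a11 and Hmox1 (panels), where points are the values over all tumours and bars the range when 1 tumour is left out. Srxn1 and Ugdh keep a positive r with Slc7a11 throughout (0.56 to 0.79 and 0.58 to 0.83), whereas the bar of Nfe2l2 with Nqo1 spans -0.55 to 0.22.

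Slc7a11 and Hmox1 were added as references after their spread had been seen. With Slc7a11, 0 of 12462 genes passed (0.0%) and 501 had an unadjusted p under 0.05 (4.02%), with 0 by the edgeR slope. Srxn1 (r = 0.71, p = 0.0204; rho = 0.53, p = 0.122) and Ugdh (r = 0.70, p = 0.0252; rho = 0.54, p = 0.114) had the highest r of the 9 other pathway genes, each with an adjusted p of 0.960 (permutation test, n = 10). Without tumours 12 and 13, r was 0.35 for Srxn1 (exact permutation p = 0.388) and 0.77 for Ugdh (exact permutation p = 0.024). Among the protein-coding genes most alike were Cbr3, a carbonyl reductase (r = 0.90), Trib3, a pseudokinase induced by ATF4 (0.89), Wdr19 (0.88) and Sdr39u1 (0.87). Cbr3 had 75.2 CPM in tumour 13 and 1.02 CPM in tumour 12, which were also the ends of Slc7a11. Slc3a2, which encodes the partner subunit of the Slc7a11 protein, had r = 0.82, and Abcc4 had r = 0.78.

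A list of 8 genes of the ATF4 response, which holds Trib3 named above, was also set beside Slc7a11. All 8 had a positive r with Slc7a11, with a median of 0.59 beside 0.01 over all genes, and 2 of 8 (Trib3 and Phgdh) had an unadjusted p under 0.05, against 2.13% of all genes in that direction. All 8 also had a positive r with Hmox1 (median 0.70, 5 of 8 at an unadjusted p under 0.05) and with Keap1 (median 0.66, 5 of 8), beside 11.8% and 8.67% of all genes. Their summed level was highest in tumours 05 (1520 CPM) and 06 (677 CPM), of the 3 tumours high in Rpph1 and Rmrp. These 2 RNAs each had r = 0.67 with Keap1 (p = 0.0426 and 0.0473, adjusted p = 0.276 and 0.285, permutation test, n = 10) and 0.24 and 0.17 with Slc7a11. A positive r with Keap1 was found for 5 of 5 endothelial (median 0.54) and 1 of 6 hepatocyte markers (-0.44), beside 51.1% of all genes (0.02). With Slc7a11 it was found for 5 of 5 endothelial (median 0.09), 1 of 4 macrophage (-0.48) and 0 of 6 hepatocyte markers tested (-0.43), beside 51.0% of all genes. The part of these RNAs and cell types in the values of the ATF4 list was not tested. A 4-fold range was reached by 7 of 8, beside 15.9% of the genes tested. Atf4 itself was highest in tumour 05 (540 CPM) and lowest in tumour 08 (159 CPM), and had r = 0.41 with Slc7a11. Asns, asparagine synthetase, departed from the rest: it was highest in tumour 12 (141 CPM), where Slc7a11 was lowest, and had r = 0.13. Ddit4, a stress-induced inhibitor of mTORC1, was lowest in tumour 13 (29.2 CPM).

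With Hmox1, 330 of 12461 genes passed (2.65%), of which 194 had a positive and 136 a negative r, and none was among the other 9 pathway genes. An unadjusted p under 0.05 was found for 2767 genes (22.2%; 11.8% with a positive r), Keap1 among them. The most alike were H3f3b, which encodes histone H3.3, Csrnp1 and the stress-response genes Atf3, Ppp1r15a and Gadd45a, with r of 0.95 to 0.97 and adjusted p of 0.0156 to 0.0283 (permutation test, n = 10). Atf3 had 628 CPM in tumour 05, 330 in tumour 06, 152 in tumour 09 and 22.1 to 125 in the other 7. Among listed genes Mafk (r = 0.93, adjusted p = 0.0257), Chac1 (0.88, 0.0357) and Ddit4 (0.87, 0.0402) passed with a positive r, and Hnf4a, a hepatocyte transcription factor, with a negative r (-0.85, 0.0498). Txnrd1 (r = 0.60, p = 0.075; rho = 0.76, p = 0.0148) and Ugdh (r = 0.58, p = 0.0743; rho = 0.70, p = 0.03) were the highest pathway genes after Keap1. These calls depended on tumours 05 and 06, which carry the same tag: without tumour 05, 06 or 12 in turn 0 genes passed, and by Spearman's rho 0 passed (2121 at an unadjusted p under 0.05). Rpph1 and Rmrp had r of 0.68 and 0.65 with Hmox1 (adjusted p = 0.163 and 0.187, permutation test). In the 7 tumours with a low level of both RNAs the r of Ugdh with Hmox1 was 0.84 (exact permutation p = 0.00873), that of Txnrd1 was 0.33 (exact permutation p = 0.481) and that of Keap1 was 0.10 (exact permutation p = 0.871). On deviations from the tag means the r with Hmox1 was 0.22 for Ugdh and turned to -0.50 for Txnrd1 and -0.10 for Keap1.

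**Figure D5:**
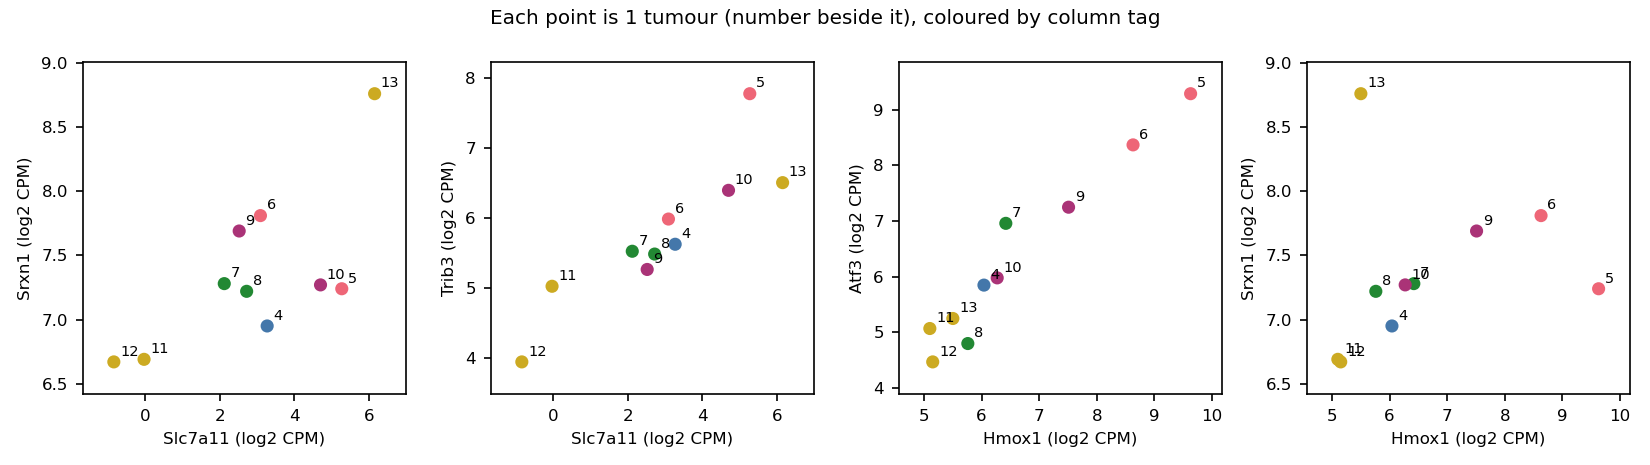
Log2 CPM of Srxn1 and Trib3 against Slc7a11, and of Atf3 and Srxn1 against Hmox1, where each point is 1 tumour, numbered and coloured by column tag. Tumours 11 and 12 are low in every panel, tumour 13 is highest for Srxn1 and Slc7a11 but low for Hmox1, and tumour 05 is highest for Hmox1, Atf3 and Trib3.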

How the data were processed

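The values are raw counts per gene, which the authors deposited in 1 table without normalisation. Per the labels, polyA RNA was extracted with Trizol and prepared with a stranded TruSeq kit. The submitters' processing notes name TopHat2, HTSeq and GRCm38, whereas the study's methods name other tools and a later build. Whether counting used the strand was not given in the sources used here. Columns were matched to tumours by library number, assuming that it is the number in the title. The other 9 of 19 columns were not used. Lines of the table that name no gene were left out. Alignments counted there as not unique made up 45.4% to 57.9% of all alignments of a tumour. Total counts of 11687034 to 36964427 set a floor of 0.0812 to 0.257 CPM for 3 counts (counting error only).

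Symbols and exon lengths came from GENCODE M39, and positions and promoters from RefSeq (GRCm38.p6). Counts were scaled with TMM (factors 0.927 to 1.11) and filtered with filterByExpr (12462 genes), and log2 CPM used a prior count of 2. Tags were tested with edgeR 4.0.16 (quasi-likelihood, Benjamini-Hochberg, threshold 0.05) in R 4.3.3. Correlations used 100000 resamples, or all 40320 orders of 8 and 5040 of 7 tumours, two-sided, in Python 3.11.15. DESeq2 1.42.0 served for alternatives. Both tests were checked on simulated data.

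The genes and lists were chosen with earlier results of these data known. Beside the 10 genes, the text names listed genes that passed a threshold or were the 2 most abundant of a list, and the genes of most extreme r, of which 1 is not reported here. Other listed genes in the text (such as Maff, Cul3, Asns, Clec4f and Slc3a2) were named after their values were seen. No 2 tumours were the same library, since the smallest chi-square per degree of freedom was 51.3.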

Additional observations from a re-analysis of the deposited data

Results flagged for a closer look

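In CPM, the highest tumour stood apart from the other 9 by a gap larger than the critical value of Dixon's test for 4 genes: Srxn1 in tumour 13 (gap 0.632 of the whole range), Hmox1 in tumour 05 (0.523), Txnrd1 in tumour 06 (0.51) and Keap1 in tumour 05 (0.502). On this scale the highest tumour shows such a gap for 11.4% of all genes tested. With both ends counted, chance flags about 5% of groups of normally distributed values, and CPM was not tested for that distribution. On the log2 scale none of the 10 genes did.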

How the results depend on the processing

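The count of genes that differed between tags moved from 53 to 1188 without the filter on low counts, to 1183 with DESeq2's likelihood ratio test and to 1 with the first part of the tag, and ranged from 0 (without tumour 11) to 167 (without tumour 10) when 1 tumour was left out. Hmox1 had an adjusted p of 0.0247 with DESeq2 size factors, 2.25e-07 without the filter, 5.53e-21 with DESeq2's test, and 0.0134 to 0.138 with 1 tumour left out. The 330 genes correlated with Hmox1 became 90 without the filter, 846 with the edgeR slope, and 0 by Spearman's rho, without tumours 05 and 06 and within the 7 tumours low in Rpph1 and Rmrp. On deviations from tag means it was 0 for every reference, but only 48 orders exist there, so that a call was hardly possible. The genes correlated with Hmox1 ranged from 0 to 388 with 1 tumour left out. For Keap1 the count of 0 became 17 with the edgeR slope and ranged from 0 to 23, the 23 without tumour 09; for Nqo1, Nfe2l2 and Slc7a11 it was 0 under every other alternative run, though the 7 tumours allow only 5040 orders. The 1977 genes with a range of at least 4-fold became 6253 without the filter, and the 3 pathway genes ranged from 2 to 3. The r of Nfe2l2 with Nqo1 changed sign to 0.14 without tumours 09 and 12, and ranged from -0.55 to 0.22 with 1 tumour left out (0.00, 0.22 and 0.09 without tumours 07, 08 and 09). On deviations from tag means r changed sign for Keap1 with Nfe2l2 (0.03), Hmox1 with Keap1 (-0.10) and Txnrd1 with Hmox1 (-0.50). The causes were not tested. Of the 35 other pairs of a reference and a pathway gene, 21 changed sign under at least 1 alternative. Mean CPM moved by less than its SD for all 10 genes with DESeq2 size factors and with library size alone. No paired analysis was possible because only tumours entered the tests, so that no 2 groups with shared replicate numbers were compared. Slc7a11 rests on 14 counts in its lowest tumour.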
